A study of Mus musculus with 6 samples.

Results

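The mouse genes whose symbols run from Zfp700 to Zfp999 form a numbered stretch of the zinc finger protein family, and they were followed here in a pair of mouse ovarian surface epithelial (OSE) cell lines. Members were chosen by symbol alone from the gene names of the array, with the addition of 2610305D13Rik, an older symbol of *Zfp979*, and each gene was represented by its probe set selected on the highest mean over the 6 arrays. This gave 65 genes, read by 71 probe sets, of the 20405 genes with a symbol. M0505 is an early passage line derived from OSE of FVB/N mice, and STOSE is the spontaneously transformed line that emerged from it during prolonged passage. Both lines were cultured in the same MOSE medium, neither carried an added transgene or treatment, and total RNA of each was hybridized to 3 Affymetrix Mouse Gene 1.0 ST arrays that the labels call biological replicates. Each group is a single cell line, so the p-values compare these lines and their replicate RNA samples and cannot separate transformation from passage or from other differences between the lines.

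Most of these genes encode proteins with tandem C2H2 zinc fingers, short loops held by a zinc ion that each contact a few bases of DNA. Many also carry a KRAB domain, which recruits the co-repressor Trim28 and, through it, the histone methyltransferase Setdb1, heterochromatin protein 1 and DNA methylation, and a large part of this family is known for binding and silencing retrotransposons. They arose by repeated duplication, lie in clusters on several chromosomes and include near-identical copies. The numbers in the symbols follow the order of naming and not function, and the stretch also holds zinc finger genes outside the KRAB group, such as *Zfp703*, *Zfp704*, *Zfp706* and *Zfp711*.

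The promoters of 3 chromosome 4 genes and of the pair of members with the largest called falls are printed first, because results below refer back to their likeness. They are RefSeq sequences of C57BL/6J (build GRCm38.p6), 250 bases before to 50 after the annotated start, in the direction of the gene, and the cells are of another strain, FVB/N. Capitals mark matches on either strand to any of 7 motifs searched, namely a GC box (GGGCGG), an ETS-type site (GGAAGT), a cyclic AMP response element (TGACGTCA), a TATA box (TATAAA), a YY1-type site (ATGGCGG), an NRF1-type site (GCGCATGCG) and a CCAAT box (CCAAT). *Zfp979* (chr4:147642459-147642758, minus strand) is shown with *Rex2* (chr4:147021600-147021899, plus strand), a neighbouring zinc finger gene whose promoter was the most like it, and *Zfp980* (chr4:145670447-145670746, plus strand), a less like copy. *Zfp772* (chr7:7209949-7210248, minus strand) and *Zfp873* (chr10:82047873-82048172, plus strand) follow.
Zfp979: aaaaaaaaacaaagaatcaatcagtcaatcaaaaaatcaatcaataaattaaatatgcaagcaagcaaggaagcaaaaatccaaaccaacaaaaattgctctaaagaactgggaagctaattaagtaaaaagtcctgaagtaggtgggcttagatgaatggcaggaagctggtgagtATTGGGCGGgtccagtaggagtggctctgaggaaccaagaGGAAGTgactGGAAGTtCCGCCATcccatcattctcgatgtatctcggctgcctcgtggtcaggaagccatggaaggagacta
Rex2: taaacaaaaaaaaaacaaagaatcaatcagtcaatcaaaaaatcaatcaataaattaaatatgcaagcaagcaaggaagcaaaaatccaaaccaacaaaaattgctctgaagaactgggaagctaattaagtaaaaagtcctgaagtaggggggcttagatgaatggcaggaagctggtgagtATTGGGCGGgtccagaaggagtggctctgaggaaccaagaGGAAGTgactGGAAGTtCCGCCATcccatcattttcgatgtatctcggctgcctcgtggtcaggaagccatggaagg
Zfp980: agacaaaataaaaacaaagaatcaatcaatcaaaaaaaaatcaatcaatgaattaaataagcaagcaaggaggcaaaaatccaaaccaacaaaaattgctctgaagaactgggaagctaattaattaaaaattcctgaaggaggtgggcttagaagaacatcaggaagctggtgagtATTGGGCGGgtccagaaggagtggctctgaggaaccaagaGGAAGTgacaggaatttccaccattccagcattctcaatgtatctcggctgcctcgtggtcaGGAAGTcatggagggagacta
Zfp772: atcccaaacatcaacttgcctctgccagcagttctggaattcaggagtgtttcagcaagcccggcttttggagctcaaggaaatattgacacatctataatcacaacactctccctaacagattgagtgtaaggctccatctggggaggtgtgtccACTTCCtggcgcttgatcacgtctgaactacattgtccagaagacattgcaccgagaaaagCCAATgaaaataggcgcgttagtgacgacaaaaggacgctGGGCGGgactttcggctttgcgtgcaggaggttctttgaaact
Zfp873: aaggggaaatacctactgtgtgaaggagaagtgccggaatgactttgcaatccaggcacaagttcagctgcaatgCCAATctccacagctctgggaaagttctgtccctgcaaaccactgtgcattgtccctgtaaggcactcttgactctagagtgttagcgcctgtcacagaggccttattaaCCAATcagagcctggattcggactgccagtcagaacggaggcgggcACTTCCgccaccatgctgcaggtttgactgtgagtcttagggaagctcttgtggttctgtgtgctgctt
In the first 3 sequences an inverted CCAAT box (ATTGG) runs into a GC box, with 2 bases shared, and an ETS-type site follows. The YY1-type letters near the right end (CCGCCAT, the other strand of ATGGCGG) were present in *Zfp979* and *Rex2* and absent from *Zfp980*.

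Values are log2 signals after robust multi-array average (RMA) normalization, so that a difference of 1 is 2-fold. The values of different probe sets depend on their probes as well as on the RNA and are not set against each other. Olfactory receptor genes, which OSE cells are not known to use, served as a guide to background. The values of their 1134 probe sets, pooled over the 6 arrays, had a median of 3.12, and 95% of these values were below 4.74. By that measure 51 members lay above 4.74 in both lines and 12 below it in both. *Zfp979* was below it in M0505 only and *Zfp874* in STOSE only. Replicate arrays of a line correlated at 0.997 to 0.999 over all genes and arrays of different lines at 0.94 to 0.95. Of 12 OSE markers, 11 were above 4.74 in each line, but all 11 were lower in STOSE cells at an adjusted p under 0.05 by limma. Those past 2-fold were the keratins *Krt19* (-5.56 on the log2 scale), *Krt8* (-4.55) and *Krt7* (-1.03), and *Lgr5* (-2.78) and *Gata4* (-1.38). None of the 3 oocyte and 3 theca and luteal markers was above 4.74, while 2 and 3 of 5 granulosa, 3 and 2 of 4 endothelial and 2 and 2 of 5 leukocyte markers were, in M0505 and STOSE cells respectively. *Ptprc* and *Pecam1*, which define leukocytes and endothelium, were below 4.74 in both lines, at 3.79 and 3.81 and at 4.69 and 4.33. Other markers of these lists were bright in M0505 cells and called lower in STOSE cells, namely *Inha* (granulosa, 9.61 to 5.68), *Kdr* (endothelial, 9.58 to 4.41) and *Cd68* (leukocyte, 9.78 to 6.96). The rest above 4.74 were called in neither direction. They were *Foxl2* (granulosa, 6.76 to 6.39), *Cd3e* (leukocyte, 5.09 to 5.31), *Cdh5* and *Tek* (endothelial, 4.81 to 5.01 and 4.76 to 4.78) and, in STOSE cells only, *Amh* (granulosa, 4.68 to 4.95). By the adjusted p alone *Foxl2* was lower and *Cd3e*, *Cdh5* and *Amh* were higher. The part of other cell types in the results was not tested.

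Fewer of these zinc finger genes were higher than lower in STOSE cells. At an adjusted p under 0.05 by limma and a change of at least 2-fold, 1 member was higher (1.54%) and 7 were lower (10.8%), against 4.9% higher and 7.59% lower of all 20405 genes, and 57 members were not called in either direction. The 1 higher member was *Zfp979*, which was added by name with its rise known, and without it 0 of 64 were higher and 7 lower, or 7 and 32 by the adjusted p alone. With the dimmer 50% of genes left out, only 33 members were tested, of which 0 were higher and 3 lower. With the adjusted p alone, 8 members were higher (12.3%, against 31.6% of all genes) and 32 were lower (49.2%, against 24.8%). The arrays of the lines did not overlap for 8 members in the higher direction, against 37.6% of all genes, and for 32 in the lower direction, against 27% of all genes. The 8 higher members were the same by both measures. Among the lower ones *Zfp763* and *Zfp764* passed the adjusted p with overlapping arrays, and *Zfp821* and *Zfp830* did the reverse. The median log2 difference of the 65 members was -0.21, with quartiles of -0.57 and 0.03, where the median of all genes was 0.08. The difference was negative for 48 members and positive for 17. The median over members was 6.70, 6.80 and 6.76 in the M0505 arrays and 6.44, 6.34 and 6.13 in the STOSE arrays, so that every STOSE array lay below every M0505 array, while the median over all genes also lay lower in STOSE arrays, at 6.25 to 6.29 against 6.46 to 6.49. The 52 members whose mean over the arrays was at least 4.74 had a median difference of -0.32, beside 0.07 for all 14387 genes above that level. Of these 52, 6 were called lower (11.5%), near the 10.4% of those 14387 genes. Called higher was 1 (1.92%, against 6.76%), again *Zfp979*. By the adjusted p alone 53.8% of the 52 were lower, against 33.4%, and 11.5% higher, against 37.5%.

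**Figure D1:**
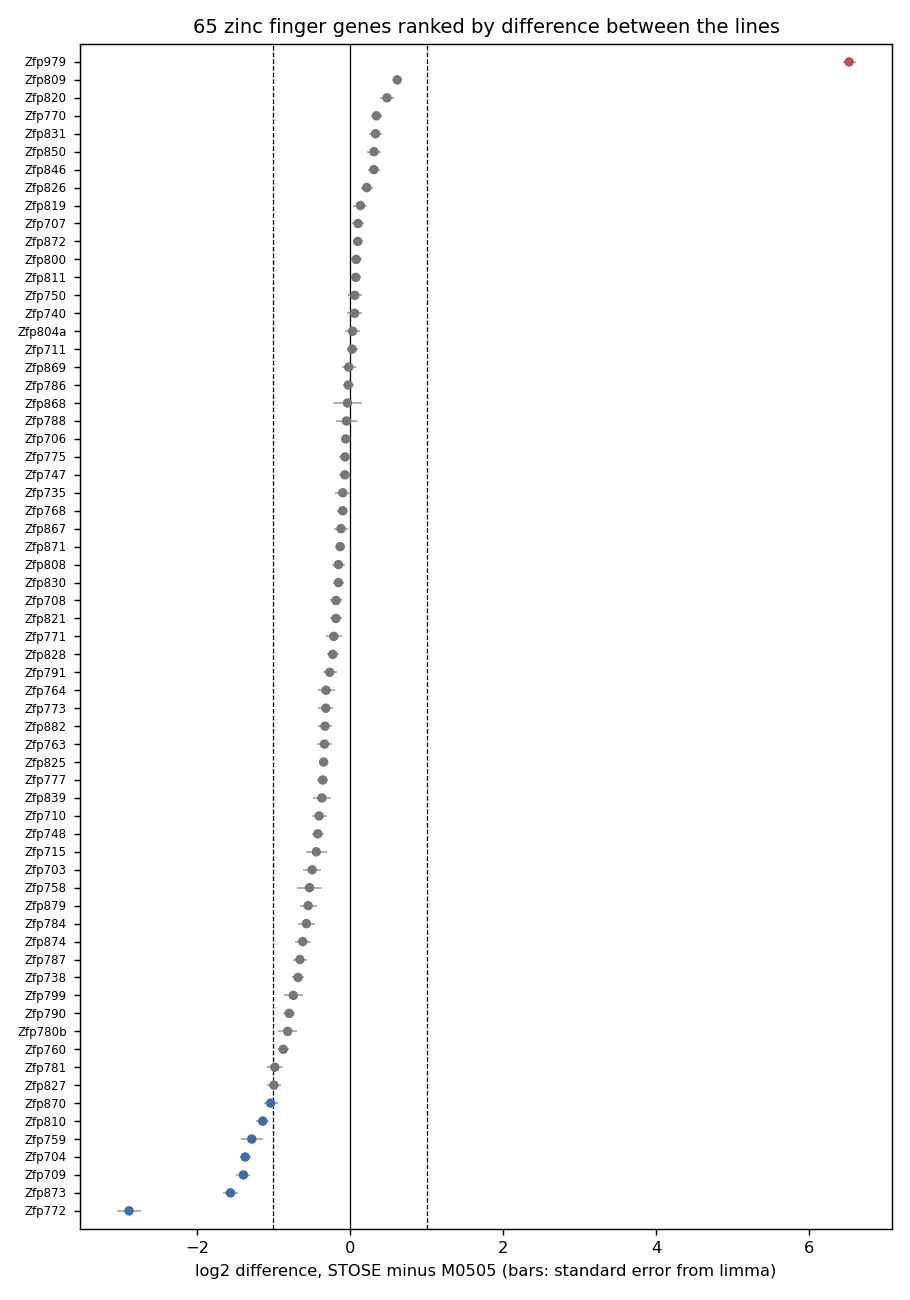
Log2 difference between STOSE and M0505 cells (x axis) for each of the 65 zinc finger genes (y axis, ranked), with bars for the standard error from limma. Dashed lines mark 2-fold, red the gene called higher and blue the 7 called lower. *Zfp979* stands alone at 6.52, the next member is *Zfp809* at 0.62, and 48 of the points lie left of 0.

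*Zfp979*, listed as 2610305D13Rik (Entrez gene 112422) on chromosome 4, has been studied under the name Ssm1b as a strain-specific modifier of DNA methylation of a transgene. It was at 2.05, 2.14 and 2.33 in the M0505 arrays and at 8.63, 8.78 and 8.68 in the STOSE arrays. All M0505 values were thus below the olfactory receptor level and all STOSE values far above it. The means were 2.18 ± 0.14 and 8.70 ± 0.08 (SD, n = 3), a log2 difference of 6.52 (SE 0.08) or 91.8-fold on the RMA scale, and at least 15.5-fold when M0505 is set at the background guide of 4.74. It was taken in by name with this rise already known, so the value is a description and carries no test.

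No other gene with a member's symbol lay within 2 Mb of *Zfp979* in the RefSeq order of chromosome 4, but 46 genes of the array did. Of these, 9 were called higher and 0 lower, with 32 higher and 4 lower by the adjusted p alone, and their median log2 difference was 0.38. That is 19.6% called higher, where the share was 10.2% for all 1183 genes of chromosome 4 and 4.9% for all genes. By the adjusted p alone 69.6% were higher, against 46.5% of chromosome 4 and 31.6% of all genes, and 8.7% lower, against 17.7% and 24.8%. The difference was positive for 37 neighbours and negative for 9. *Zfp979* had the largest rise of all genes with a symbol, so no neighbour could have risen as far. The 145 genes beyond *Zfp979* towards the end of chromosome 4 had 18 called higher (12.4%) and 2 lower. Their median was 0.26, beside 0.18 for the whole chromosome. The paper's karyotypes showed a terminal deletion of chromosome 4 in every M0505 cell analyzed and added material at its end in every STOSE cell. The part of DNA copy number in these values was not tested. Of the 46 neighbours 9 had RefSeq names of the Zfp or Znf series or were *Rex2*. Their median was 0.32, and 1 was called higher (11.1%, near the 10.2% of chromosome 4), *Rex2*. *Casz1*, a zinc finger gene outside those names that was singled out after its value was seen, was lower (-0.63, SE 0.07, adjusted p = 1.09e-04 by limma).

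**Figure D2:**
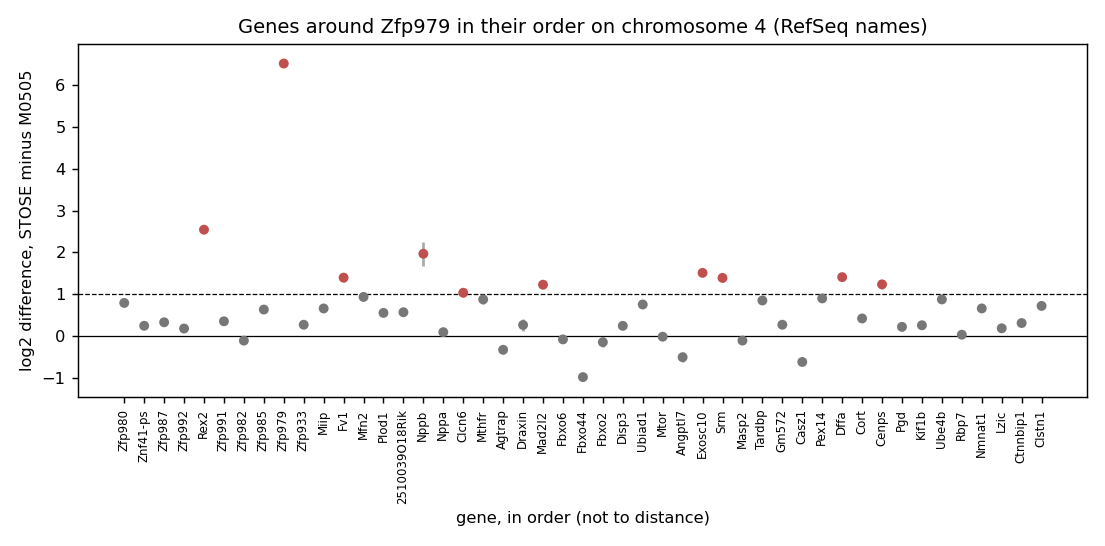
Log2 difference between STOSE and M0505 cells (y axis, bars: standard error from limma) of *Zfp979* and the 46 genes within 2 Mb of it, in their RefSeq order along chromosome 4 (x axis, evenly spaced). Red marks genes called higher. *Zfp979* at 6.52 and *Rex2* at 2.54 stand highest, and 37 of the 46 neighbours lie above 0.

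The *Zfp979* promoter printed above belonged to a set of copies. Among 27025 genes with a RefSeq promoter, 6 others, all on chromosome 4, had a promoter at least 80% identical to it over the aligned columns, gaps counted as differences, and 5 of them were on the array. *Rex2*, at 94.8% identity (290 of 306 columns), was at 5.32, 5.31 and 5.24 in M0505 cells and 7.67, 7.91 and 7.92 in STOSE cells, and it was named after its values were seen. Its arrays were apart and its mean rose by 2.54 (SE 0.08, 5.82-fold, adjusted p = 7.37e-08 by limma). *Zfp980* (89.5%) had a difference of 0.79, with both lines below 4.74. *Zfp982* (84.6%) had a difference of -0.12, *Zfp987* (82.9%) of 0.32 and *Zfp985* (81.3%) of 0.63, and of these only *Zfp987* was above 4.74. *Zfp600*, at 94.4%, was not matched to a probe set by name. The YY1-type letters were in the promoters of *Zfp979*, *Rex2* and *Zfp600* and not in those of the other 4. Near-identical genes can share probes, and the part of shared probes in the *Zfp979* and *Rex2* values was not tested. The *Zfp979* promoter held 5 CpG dinucleotides, where the 67 promoters of 56 members held 2 to 54 with a median of 11 and those of all genes a median of 7.

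Over the 56 members with a promoter in the RefSeq table, 60.7% held CCAAT, 48.2% the ETS-type letters, 46.4% the GC box and 16.1% the YY1-type letters, where all genes had 41.1%, 26.5%, 38.2% and 4.69%. The TATA box was in 10.7% of members and 15.7% of all genes, the cyclic AMP response element in 3.57% and 2.03%, and the NRF1-type site in 1.79% and 1.95%. Of the 5 members called lower that had a promoter, 4 held CCAAT, among them *Zfp772* and *Zfp873*, 4 the ETS-type letters, 3 the GC box and 0 the YY1-type letters. No promoter was listed for *Zfp703*, *Zfp704*, *Zfp706*, *Zfp707*, *Zfp711*, *Zfp750*, *Zfp828*, *Zfp831* and *Zfp870*.

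*Zfp772*, on chromosome 7, had the largest fall of the members. Its values were 8.93, 9.62 and 9.52 in M0505 cells and 6.51, 6.49 and 6.41 in STOSE cells. Every M0505 array was far above every STOSE array. The means were 9.36 ± 0.37 and 6.47 ± 0.06 (SD, n = 3), a fall of 7.39-fold (log2 difference -2.89, SE 0.16, adjusted p = 1.68e-06 by limma). A second probe set named for the gene, not used in the counts, fell by much less, from 6.10, 6.43 and 6.51 to 5.47, 5.68 and 5.64, a log2 difference of -0.75.

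*Zfp873*, on chromosome 10, was at 6.73, 7.003 and 6.87 in M0505 cells and 5.25, 5.49 and 5.19 in STOSE cells. It fell 2.95-fold (log2 difference -1.56, SE 0.10, adjusted p = 3.50e-06 by limma), and its neighbour *Zfp781* missed the 2-fold limit at -0.98 (SE 0.10). Of all 929 genes of chromosome 10, 13% were called lower, against 7.59% of all genes, and their median was -0.05. The part of the chromosome in these falls was not tested. *Zfp704*, on chromosome 3, was at 7.92, 7.80 and 7.88 in M0505 cells and 6.57, 6.54 and 6.38 in STOSE cells. Its fall of 2.58-fold (log2 difference -1.37, SE 0.07, adjusted p = 9.86e-07) had the smallest standard error of the 7 called falls.

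*Zfp759* on chromosome 13 went from 6.55, 6.88 and 7.04 in M0505 cells to 5.36, 5.76 and 5.49 in STOSE cells, with a log2 difference of -1.28 (SE 0.14, adjusted p = 8.54e-05). *Zfp810* on chromosome 9 went from 7.23, 7.41 and 7.53 to 6.22, 6.34 and 6.20, with a difference of -1.14 (SE 0.09, adjusted p = 9.07e-06). *Zfp870* on chromosome 17 was at 6.12, 6.41 and 6.32 and then at 5.26, 5.35 and 5.12, with a difference of -1.04 (SE 0.09, adjusted p = 2.21e-05). The arrays of the lines were apart for all 3 genes. *Zfp870* was just inside the 2-fold limit and missed it without M0505 replicate 2 (-0.97) or STOSE replicate 3 (-0.98). *Zfp709* on chromosome 8 was also called lower, at 3.90, 3.95 and 4.21 in M0505 cells and 2.72, 2.55 and 2.62 in STOSE cells (log2 difference -1.39, SE 0.09, adjusted p = 4.29e-06), but all 6 of its values were below the olfactory receptor level of 4.74 and no fold is given.

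**Figure D3:**
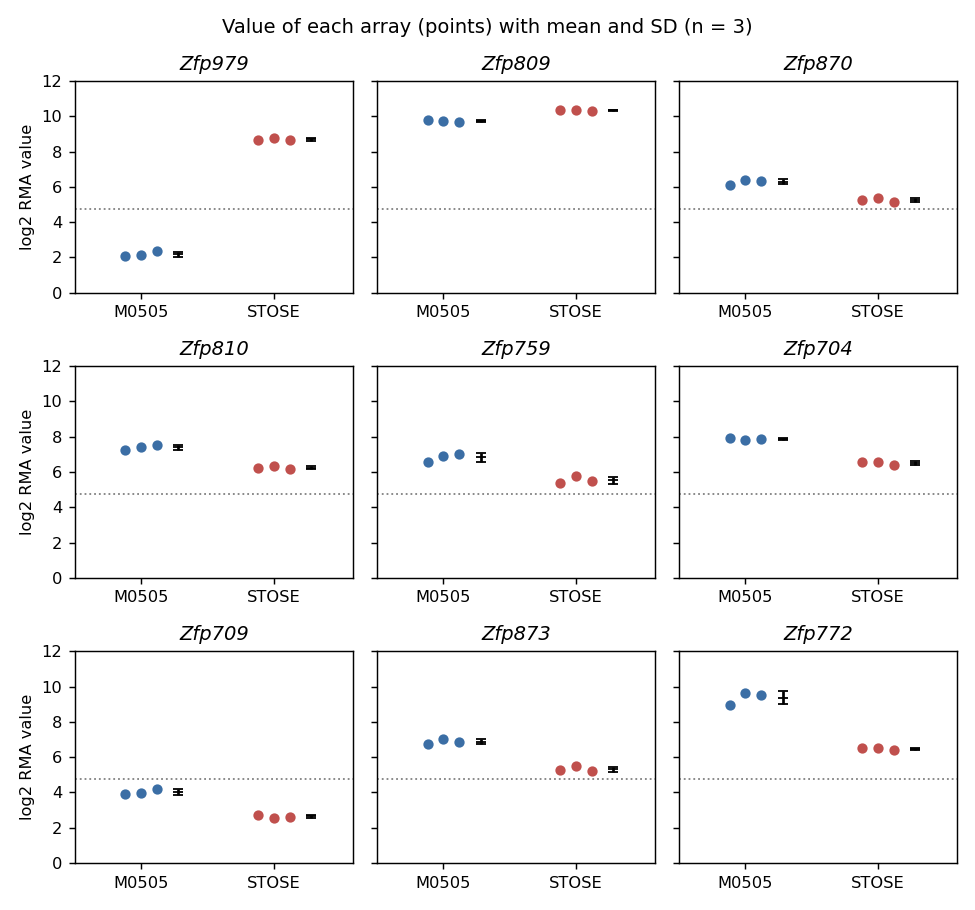
RMA log2 values (y axis) of each array (points, 3 per line) for the 8 called members and *Zfp809*, with the mean and SD of each line beside the points. The dotted line is the background guide from olfactory receptor genes, 4.74. The lines are apart in every panel, M0505 lies below the dotted line for *Zfp979*, and both lines do for *Zfp709*.

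*Zfp809* encodes a KRAB zinc finger protein that binds the primer binding site of murine leukaemia viruses and silences proviruses through Trim28. It was at 9.78, 9.75 and 9.66 in M0505 cells and 10.34, 10.37 and 10.33 in STOSE cells. The lines were apart, and the rise was 1.53-fold (log2 difference 0.62, SE 0.06, adjusted p = 3.29e-05), below the 2-fold limit. Its chromosome 9 neighbours did otherwise, since *Zfp810* fell, as above, and *Zfp872* had a difference of 0.10 (adjusted p = 0.202) with both lines below 4.74. The next rise, *Zfp820*, was of 0.48 (SE 0.09, adjusted p = 0.0015). The other members past the adjusted p in this direction were *Zfp770* (0.35), *Zfp831* (0.33), *Zfp850* (0.31), *Zfp846* (0.31) and *Zfp826* (0.22, named *Zfp950* by RefSeq), of which *Zfp831* and *Zfp850* were below 4.74 in both lines.

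Of the other members with a known role, *Zfp827*, *Zfp703* and *Zfp828* fell. *Zfp827*, whose protein recruits the nucleosome remodelling and deacetylase complex to telomeres, was at 8.55, 8.38 and 8.30 in M0505 cells and 7.54, 7.47 and 7.25 in STOSE cells. This fall of 1.99-fold (log2 difference -0.99, SE 0.10, adjusted p = 3.92e-05) was just outside the 2-fold limit. *Zfp703*, a transcriptional cofactor known as an oncogene of luminal breast cancer in people, fell by 0.50 on the log2 scale (SE 0.12, adjusted p = 0.0063), from 8.12, 7.80 and 7.84 to 7.40, 7.26 and 7.62. *Zfp828*, named *Champ1* by RefSeq and needed for chromosome alignment at mitosis, fell by 0.23 (SE 0.08, adjusted p = 0.0396). It no longer passed without M0505 replicate 2 or 3 or STOSE replicate 2 or 3 (adjusted p from 0.0801 to 0.131).

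*Zfp706*, which takes part in the exit of embryonic stem cells from self-renewal, was at 11.36 to 11.46 in M0505 cells and 11.33 to 11.36 in STOSE cells. Its difference was -0.06 (adjusted p = 0.426) and that of its second probe set -0.07. *Zfp830*, whose protein takes part in RNA splicing, had a difference of -0.15 (adjusted p = 0.087). *Zfp750*, a regulator of epidermal differentiation, had one of 0.06 (adjusted p = 0.574). The remaining 3 lay below 4.74 in both lines, namely *Zfp819*, a testis gene linked to the control of retroelements (0.14, adjusted p = 0.246), *Zfp711*, an X-linked gene of intellectual disability (0.03, adjusted p = 0.760), and *Zfp804a*, a gene near variants associated with schizophrenia (0.03, adjusted p = 0.782). *Zfp871* and *Zfp825* were taken in, with *Zfp706*, *Zfp809* and *Zfp828*, for their bright probe sets. *Zfp871* had a difference of -0.13 (adjusted p = 0.146) and *Zfp825* one of -0.34 (adjusted p = 0.00171, with -0.34 in its second probe set). No member with several probe sets had opposite signs past 0.5.

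By position, 36 members lay in 12 clusters, taken as runs of members within 1 Mb of each other in RefSeq, and 29 lay alone. The chromosome 13 cluster of *Zfp708*, *Zfp759*, *Zfp874*, *Zfp748* and *Zfp738* had differences from -1.28 to -0.18 and a median of -0.62, all 5 negative. *Zfp738* read -0.68 in the probe set used and -1.16 in the other. The chromosome 7 cluster of *Zfp787*, *Zfp773* and *Zfp772* was also negative throughout, with a median of -0.65, while 4 further chromosome 7 genes, *Zfp771*, *Zfp768*, *Zfp747* and *Zfp764*, lay between -0.31 and -0.07. On chromosome 17 the cluster of *Zfp871*, *Zfp811*, *Zfp799*, *Zfp870* and *Zfp763* ran from -1.04 to 0.08, and in that of *Zfp760*, *Zfp820* and *Zfp758* the middle gene was higher (0.48) and *Zfp760* lower (-0.87). Neighbours in a cluster can thus differ in sign. The members' median was below that of all genes of the chromosome on each of the 4 chromosomes with most members, at -0.32 against 0.05 on chromosome 7 (15 members), -0.26 against 0.12 on chromosome 8 (9), -0.43 against 0.10 on chromosome 17 (8) and -0.42 against 0.05 on chromosome 13 (7). It was above it on chromosome 9 (4 members, 0.21 against 0.05) and chromosome 2 (3 members, 0.33 against 0.08). With 1 member each, chromosomes 4 (*Zfp979*), 19 and X also had it above. On chromosomes 3, 6, 10, 11, 12 and 15 the members' median was below.

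RefSeq now places a further 33 genes of the array in the Zfp700 to Zfp999 range under names that differ from those in the table, and these were not members. Of them 0 were called higher and 4 lower (12.1%), against 4.9% higher and 7.59% lower of all genes. By the adjusted p alone 8 were higher (24.2%) and 21 lower (63.6%), against 31.6% and 24.8% of all genes. Their median was -0.32. Of the 8 that were higher, 6 were on chromosome 4, which held 7 of the 33. These 7 are zinc finger neighbours of *Zfp979* already counted above. The 4 called lower were *Zfp974* (-1.36, SE 0.12), *Zfp975* (-1.35, SE 0.12), *Zfp953* (-1.09, SE 0.09) and *Zfp874b* (-1.03, SE 0.10, both lines below 4.74). The 249 genes from Zfp1 to Zfp699 had 6 called higher (2.41%) and 23 lower (9.24%, near the 7.59% of all genes). By the adjusted p alone these were 48 (19.3%) and 113 (45.4%), and the median was -0.15. In all 3 lists the median was thus below 0 and more genes were lower than higher by both measures. All genes also had more called lower (1548) than higher (1000), but fewer lower (5066) than higher (6454) by the adjusted p alone. No difference between the lists was tested.

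**Figure D4:**
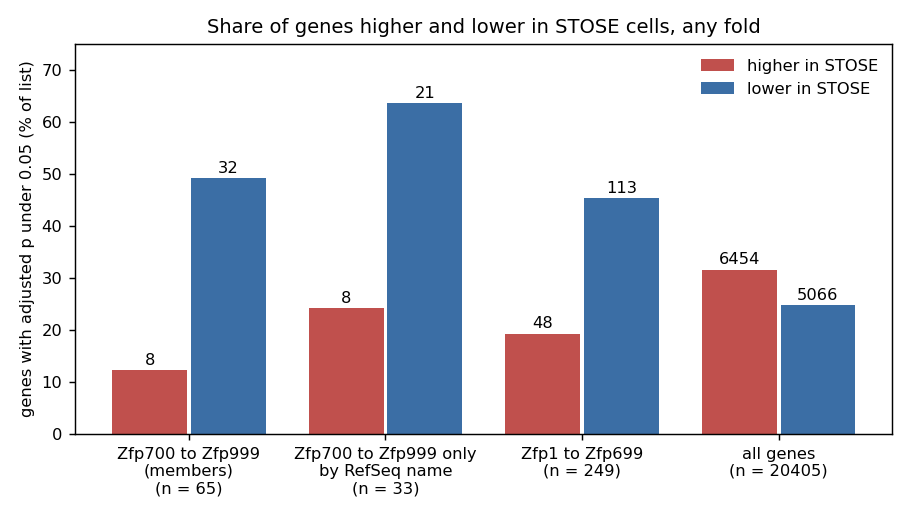
Percent of genes with an adjusted p under 0.05 by limma at any fold (y axis), higher (red) or lower (blue) in STOSE cells, for the 65 members, the 33 genes in the same range only by their RefSeq name, the 249 genes from Zfp1 to Zfp699 and all 20405 genes. Numbers above the bars are genes, and *Zfp979*, added by name with its rise known, is 1 of the 8 higher members. The blue bar is the taller in the zinc finger lists (49.2% against 12.3% in the members) and the shorter over all genes (24.8% against 31.6%).

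The genes through which KRAB zinc finger proteins act were described from a list of 33, of which 32 were on the array. Of these 2 were called higher (6.25%, against 4.9% of all genes) and 0 lower (against 7.59%). By the adjusted p alone 14 were higher (43.8%, against 31.6%) and 7 lower (21.9%, against 24.8%). The median log2 difference was 0.12. *Trim28*, the co-repressor that the KRAB domain binds, was at 10.32 ± 0.04 in M0505 and 10.36 ± 0.07 in STOSE cells (SD, n = 3, difference 0.04, adjusted p = 0.636 by limma). *Setdb1*, which places the repressive methyl mark on histone H3, rose from 7.34 ± 0.09 to 8.22 ± 0.13 (difference 0.88, SE 0.08, 1.85-fold, adjusted p = 3.18e-05), short of the 2-fold limit. The largest of the 7 falls past the adjusted p was that of *Atrx*, a chromatin remodeller (-0.79, SE 0.07, adjusted p = 2.91e-05 by limma). It was followed by *Tasor* (-0.62), a subunit of the HUSH silencing complex, *Rbbp7* (-0.60), a histone-binding subunit, and *Daxx* (-0.51), the partner of *Atrx*. Among the 14 rises the largest below 2-fold, after *Setdb1*, were *Dnmt1* (0.81), *Hdac1* (0.72), *Cbx3* (0.64) and *Cbx1* (0.57). Apart from *Setdb1*, these falls and rises were named after their values were seen. The pair called higher was *Uhrf1*, which brings the maintenance DNA methyltransferase to replicated DNA (difference 1.38, SE 0.09, 2.60-fold), and *Gatad2a*, a subunit of the nucleosome remodelling and deacetylase complex (1.03, SE 0.07, 2.04-fold). The count was 1 without M0505 replicate 3, and *Gatad2a* was just inside the 2-fold limit.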

How the data were processed

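Total RNA of M0505 and STOSE cells (3 arrays each) was labeled with biotin and hybridized to Affymetrix Mouse Gene 1.0 ST arrays. Per the labels, the authors normalized the signals by RMA in Affymetrix Expression Console (versions not given in the sources used here) and deposited log2 values of 28944 probe sets, with 1 column per array, plus line averages and fold changes, which were not used. RMA brings all arrays to nearly the same distribution of values, so a shift shared by most genes cannot be seen. The 23530 probe sets with a symbol read 20405 genes. Where several read 1 gene, as for 1613 genes, the brightest on average was kept.

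STOSE and M0505 arrays were compared with lmFit and eBayes of limma 3.58.1 (R 4.3.3), without covariates, and p-values were adjusted by Benjamini-Hochberg over all 20405 genes. A gene was called at an adjusted p under 0.05 and at least 2-fold. With 3 arrays a line the smallest two-sided exact permutation p is 0.1, so none is given. The code was tested on simulated data. The members, the lists and the rule for named genes (known roles, called members, highest values, genes next to the fold limit, discordant probe sets) were chosen with earlier results of these data known. The olfactory receptor level was chosen after the data were seen. All 65 members were matched to RefSeq genes, 61 by symbol and 4 by synonym. Coordinates are given for promoters only, since the table names no build. Promoters were aligned with Biopython 1.88. The small number of arrays limits the precision. Alternatives were a further quantile normalization, centring, filters on dim genes, the mean of a gene's probe sets, the methods' t-test, limma with trend and robust estimation, no fold limit, a replicate block and leaving out each array.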

Additional observations from a re-analysis of the deposited data

How the results depend on the processing

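The same 7 members stayed called lower under a further quantile normalization, centring of the arrays and the mean of a gene's probe sets. They also did so by the methods' t-test with adjustment, limma with trend and robust estimation, and the replicate block. Where 1 member was higher, here and below, it was *Zfp979*, taken in by name with its rise known. That count is therefore no check on the processing. The labels do not state that replicate numbers are pairs, and the main comparison did not take them as such. Same-numbered arrays deviated together with correlations of 0.256, 0.042 and 0.249. As a hint of pairing from the data only, 5 of 6 arrays correlated best with their own number. The replicate block gave 7 lower and 1 higher and moved the adjusted p of *Zfp828* from 0.0396 to 0.0596. With the dimmest 50% of genes left out, only 33 members were tested and 3 were lower and 0 higher. With the dimmest 25% left out 53 were tested, 6 were lower (*Zfp709* was filtered out) and the median difference was -0.33 in place of -0.21. By the adjusted p alone 32 members were lower and 8 higher, and 14 KRAB co-repressor genes were higher and 7 lower. With the genes under other symbols added, an alternative chosen after seeing the data, 11 of 98 were lower. That share of 11.2% is near the 10.8% of the members alone, against 7.59% of all genes. Leaving out 1 array at a time gave 6 to 9 lower members, 1 higher member each time, medians of -0.25 to -0.18, and 1 to 2 KRAB co-repressor genes higher, the 1 without M0505 replicate 3. In those fits *Zfp827* became called without M0505 replicate 2 or 3 or STOSE replicate 1 or 2, and *Zfp781* without replicate 1 of either line. Among the members picked by the rule for named genes, the sign of 3 differences that had not passed the test turned. Outside that rule, leaving out 1 array also turned small differences that had not passed, those of *Zfp740*, *Zfp747*, *Zfp786*, *Zfp788*, *Zfp868* and *Zfp869*. The widest of these ranges was that of *Zfp868*, from -0.22 to 0.14. *Zfp711* was at -0.053 and *Zfp804a* at -0.064 after a further quantile normalization. Leaving out 1 array at a time gave -0.026 (without STOSE replicate 1) to 0.074 for *Zfp711*, also below 0 without M0505 replicate 1, -0.011 (without M0505 replicate 2) to 0.153 for *Zfp750*, and -0.025 (without STOSE replicate 3) to 0.124 for *Zfp804a*, also below 0 without M0505 replicate 2. *Zfp706* passed the adjusted p (0.0477) after the quantile normalization and *Zfp871* (0.0479) without STOSE replicate 1. No called change turned its sign. Arrays have no read depth, and the low signal of the 12 members below the olfactory receptor level in both lines limits what their differences can show.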
